A study of Bos grunniens with 3 samples.

Results

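The cells described here are basal-type keratinocytes of white yak hair follicles that carried the hemidesmosome genes COL17A1 and DST and little or no CCL27 and IL1R2. They were chosen cell by cell from the unique molecular identifiers (UMIs, each marking 1 captured RNA molecule) of 3 single-cell libraries, 1 each from anagen, catagen and telogen. A cell was taken when it had at least 200 detected genes, at least 5 UMIs of COL17A1 and DST together, fewer than 2 UMIs of CCL27 and IL1R2 together, less than 0.5% of its UMIs from KRT1 and KRT10, SPARC below 1000 CPM (UMIs per 1000000 UMIs of the cell), fewer than 3 UMIs of KRT79, fewer than 3 UMIs of NMB, PDZRN3 and ATP6V1B1 together, and fewer than 5 UMIs of the mitosis genes TOP2A, CENPF and UBE2C together. These limits found 488 of 11987 anagen cells, 925 of 12062 catagen cells and 490 of 14502 telogen cells, or 1903 of 38551 cells in all. The values of these 14 genes chose the cells, so their levels in the class are a description and support nothing. A comparison of chosen cells with the cells left over is a description too.

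Basal keratinocytes of the epidermis and of the outer root sheath sit on a basement membrane and are tied to it by hemidesmosomes. In that junction COL17A1, a collagen that spans the membrane, and the integrin chains ITGA6 and ITGB4 bind laminin outside the cell, while DST and PLEC hook the complex to keratin filaments made of KRT5 and KRT14 inside it. Hair follicles pass through growth (anagen), regression (catagen) and rest (telogen), and the lower follicle is rebuilt from stem cells of the bulge and hair germ in each round. CCL27 is a chemokine of keratinocytes that attracts T cells to skin, and IL1R2 is a decoy receptor for interleukin 1.

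The libraries came from scapular skin of healthy Tianzhu white yaks about 2 years old, with no other treatment or genotype given. Skin strips were digested with dispase, single follicles were pulled out, their cells were released with trypsin, and 10x Genomics libraries were made. The study names 3 animals without tying any of them to a library, and its methods speak of anagen and catagen skin only, so that what is given here of the telogen library comes from its labels. As no animal is tied to a library, each stage counts as 1 sample, no difference between stages has a replicate check and no p-value is given. The protocol text of the catagen library speaks of anagen skin, while its title, description and stage label say catagen.

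The deposited matrices held 82862998 UMIs in 12000 anagen cells, 51647865 in 12124 catagen cells and 103511775 in 14573 telogen cells. Median depth in the class was 5064 UMIs per cell in anagen, 3251 in catagen and 5967 in telogen, close to the 5280, 3367 and 5566 of all other cells in the same library. The smallest UMI total of an anagen barcode was 2404, whereas catagen and telogen class cells went down to 542 and 636 UMIs. Kept cells of 2 libraries shared between 40 and 48 barcodes per pair, and the class itself shared 1 barcode, between catagen and telogen. Summed over class cells, 2920996 UMIs were available in anagen, 3527855 in catagen and 3061292 in telogen. Levels below are UMIs of a gene per 1000000 UMIs of a group of cells (CPM), with exact Poisson 95% intervals, and ratios are log2 ratios of CPM with 1 CPM added to each side and exact binomial 95% intervals. All intervals cover counting error only, not the spread between animals, and 3 UMIs in the class correspond to 1.03 CPM in anagen, 0.850 CPM in catagen and 0.980 CPM in telogen.

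The class made up 4.07% of anagen cells (exact Clopper-Pearson 95% interval 3.72 to 4.44), 7.67% of catagen cells (7.2 to 8.16) and 3.38% of telogen cells (3.09 to 3.69). The catagen share was the highest of the 3, also when cells were reduced at random to 3000 UMIs and shallower cells left out, which gave 2.46% of 9892 anagen, 6.18% of 6684 catagen and 2.12% of 9991 telogen cells. The share of cells with 5 or more COL17A1 and DST UMIs differed less, at 27.0% in anagen, 30.5% in catagen and 27.9% in telogen. Of those cells, 15.1%, 25.2% and 12.1% met the remaining limits. The nearest other cells were those that met every limit except that they had 2 or more CCL27 and IL1R2 UMIs, and they are called the CCL27 IL1R2 counterpart. It held 516 anagen, 783 catagen and 377 telogen cells, with median depths of 6372, 4588 and 6626 UMIs, each higher than in the class. A count limit of this kind is met more often by deep cells, and the part of depth in the difference between class and counterpart was not tested beyond the alternatives given at the end.

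Many cells sat close to a limit. Of the class, 106 anagen, 185 catagen and 119 telogen cells had exactly 5 COL17A1 and DST UMIs, and 181, 267 and 129 had 1 UMI of CCL27 or IL1R2. Just outside the first limit, cells with 4 COL17A1 and DST UMIs had ITGA6 at 179.9, 273 and 235 CPM in the 3 stages, against 194, 260.0 and 275 CPM in cells with 5. Across the second limit IGFBP5 stepped down. In catagen it was at 363 CPM in cells without CCL27 and IL1R2 UMIs, 143 CPM with 1, 129 CPM with 2 and 30 CPM with 3 or more. The same order held in anagen (346, 155, 117 and 111 CPM) and in telogen (236, 184, 86.5 and 67.7 CPM). Other genes stepped at the first limit in some stages: from 4 to 5 COL17A1 and DST UMIs, FST went from 310.0 to 961 CPM in anagen and from 403 to 156 CPM in catagen, CD74 from 426 to 118 CPM in telogen and LAMA3 from 51.7 to 102.1 CPM in anagen.

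The label was checked against its markers. KRT14 and KRT5, the keratin pair of basal cells, were at 13838 and 1507 CPM in the anagen class, 13503 and 2141 CPM in catagen, and 15822 and 1789 CPM in telogen. Neither was 2-fold higher than in the other cells, with log2 ratios of 0.40, 0.22 and -0.37 for KRT14 and 0.91, 0.62 and 0.24 for KRT5. Against all other cells, P3H2, an enzyme that hydroxylates prolines of basement membrane collagen, was 2.62-fold higher in anagen, 2.66-fold in catagen and 2.24-fold in telogen. MYLK, the kinase that starts myosin contraction, was 2.54-fold, 2.27-fold and 2.81-fold higher. In anagen MYLK was at 33.4 CPM in cells with 5 COL17A1 and DST UMIs and at 107 CPM with 10 or more. The same levels were 58.1 and 65.3 CPM in catagen and 76.4 and 89.0 CPM in telogen. CD74, the invariant chain of MHC class II, was the exception among the markers given for these cells. It was at 88.7, 231 and 116 CPM, only 1.77-fold, 1.51-fold and 1.32-fold above the other cells, and at or below the counterpart, which had 91.0, 377 and 156 CPM. CD74 was thus not past 2-fold in any of the 3 libraries.

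Genes of immune cells were low in UMIs. The 18 listed immune genes with a row summed to 12.7 CPM in the anagen class, 6.80 in catagen and 13.4 in telogen, against 17.5, 10.1 and 32.9 CPM in the other cells. Of these 18 genes, 11, 13 and 11 were at 0 in the class, and the most abundant was CD14 in anagen at 4.79 CPM and AIF1 in catagen and telogen at 3.40 and 8.82 CPM. PTPRC, which all white blood cells carry, was found in 0 of 450 anagen, 0 of 528 catagen and 0 of 431 telogen class cells after thinning to 3000 UMIs. Taken as 3 divided by the number of cells, this allows shares of cells with a PTPRC UMI of up to 0.667%, 0.568% and 0.696%. Of 20 listed MHC class II and antigen presentation genes, 8 had a row, and of the 4, 3 and 4 that could be compared with other cells none was 2-fold higher and IFI30 was 2-fold lower in catagen. Over all genes compared, 1.68%, 2.58% and 1.49% were 2-fold higher in the class than in other cells and 3.74%, 3.89% and 4.54% were 2-fold lower. Endothelial genes summed to 4.11, 10.2 and 1.31 CPM, with 5, 3 and 8 of 9 at 0, and Merkel cell genes to 0.685, 1.70 and 0.980 CPM, with 4 of 5 at 0 in each stage. Mesenchymal genes summed to 37.0, 65.8 and 23.5 CPM (112, 77.2 and 38.3 CPM in the other cells), led by DCN at 22.9, 33.4 and 10.8 CPM with 6 of 12 at 0, and their part in the results was not tested. Melanocyte genes summed to 14.7, 120.2 and 12.1 CPM against 9.14, 30.8 and 8.65 CPM, led by MITF in anagen and telogen and by PMEL in catagen, where the PMEL UMIs lay in few cells, as described further on.

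The anchoring genes that the limits did not use were also high. LAMA3 and LAMB3 are chains of the laminin that hemidesmosomes bind, and LAMA3 was past 2-fold above the other cells in all 3 stages (97.6 against 46.6 CPM, 217 against 88.7 CPM and 188 against 86.5 CPM). Its log2 ratios were 1.05 (0.89 to 1.24) in anagen, 1.28 (1.17 to 1.40) in catagen and 1.11 (0.99 to 1.24) in telogen. With the deepest 5% of cells left out the LAMA3 ratio was 0.95 in both anagen and telogen, just under 2-fold. LAMB3 had ratios of 0.98, 1.30 and 1.04. The integrin chain ITGA6 lay at the 2-fold line in every stage, with ratios of 0.99, 1.01 and 0.99 and levels of 239, 347 and 367 CPM. Its partner ITGB4 had ratios of 1.15, 0.88 and 0.65.

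Of 27 hemidesmosome and basement membrane genes listed, 23 had a row and 15, 18 and 14 reached 10 CPM on either side. Of these, 3 of 15 were 2-fold higher in the anagen class (among them ITGB4 and LAMA3), 6 of 18 in catagen (among them AGRN, COL4A2, ITGA6, LAMA3 and LAMB3) and 2 of 14 in telogen (LAMA3 and LAMB3), and none was 2-fold lower. The shares over all genes were 1.68%, 2.58% and 1.49%. The list's median log2 ratio was 0.70, 0.83 and 0.58, beside 0.03, 0.06 and 0.06 over all genes. These genes share a junction with COL17A1 and DST, which chose the cells, and the counts are given as a description. COL17A1 itself, at 488, 674 and 395 CPM, and DST, at 1038, 1935 and 998 CPM, differ from the other cells by construction.

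**Figure D1:**
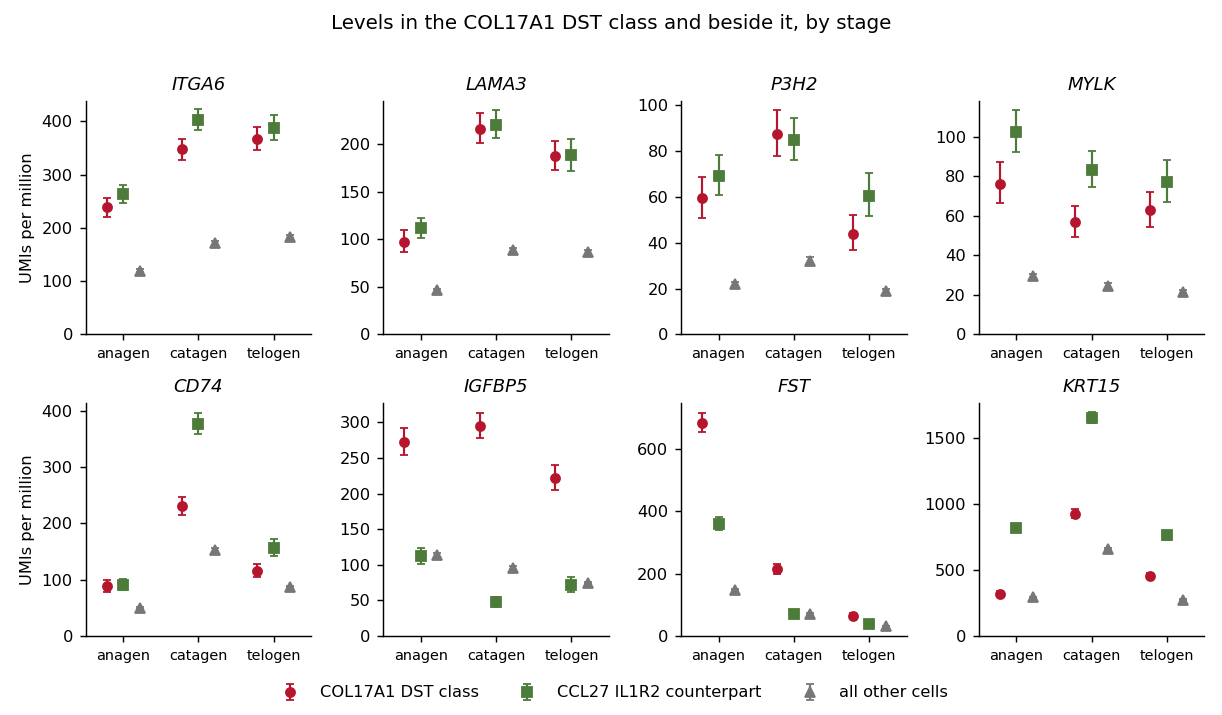
Levels in CPM (linear axis from 0) of 8 genes in the COL17A1 DST class, the CCL27 IL1R2 counterpart and all other cells, at anagen, catagen and telogen; points are sums over the cells of 1 library and bars are exact Poisson 95% intervals. ITGA6, LAMA3, P3H2 and MYLK are high in class and counterpart alike, IGFBP5 and FST are higher in the class, and CD74 and KRT15 are as high or higher in the counterpart.

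Beyond the junction, 98 of 5823 genes were 2-fold higher in the anagen class than in the other anagen cells, 160 of 6195 in catagen and 83 of 5552 in telogen. Over the 5101 genes that could be compared in all stages, 17 were 2-fold higher in each of the 3, 3 of them without a symbol. The others included ANGPTL2, CAVIN1, CTTNBP2, EPB41L2, FGFR1, IGFBP5, LAMA3, MYLK, P3H2, PTHLH, SEMA3E, THBS2 and ZNF704. When each cell's CPM was averaged in place of summing UMIs, the telogen split of 83 higher and 252 lower became 127 higher and 219 lower. After thinning to 3000 UMIs before the limits it became 350 higher and 360 lower. In anagen, thinning turned 98 higher and 218 lower into 300 higher and 358 lower. Thinning left 243 anagen and 212 telogen class cells of 3000 UMIs each. The minimum of 10 CPM stayed, so thinned calls rest on fewer UMIs.

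IGFBP5, a secreted protein that binds insulin-like growth factors, headed the genes at 50 CPM or more ranked by their weakest stage. It was at 273 CPM in the anagen class (254 to 292), 295 in catagen (278 to 314) and 222 in telogen (206 to 239), while the other cells had 114, 95.8 and 74.2 CPM. The log2 ratios were 1.25 (1.15 to 1.36), 1.61 (1.53 to 1.72) and 1.57 (1.47 to 1.70). At 3000 UMIs per cell, IGFBP5 was found in 31.8%, 30.7% and 25.5% of class cells, so most class cells had none at this depth. Among cells with 2% or more of their UMIs from inner sheath keratins, which serve here as cells that should lack basal genes (2 of them in anagen and 4 in catagen also met the limits of the class), the shares were 7.61%, 2.67% and 2.22%, at median depths of 5093, 8980 and 16805.5 UMIs before thinning.

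FST, the secreted inhibitor of activin, was 4.60-fold higher than in other cells in anagen and 3.03-fold in catagen, but 1.94-fold in telogen, where its level was 63.4 CPM against 682 CPM in anagen. After thinning to 3000 UMIs the telogen log2 ratio of FST was 1.40, past 2-fold. PTHLH, a peptide hormone that basal keratinocytes and follicle cells release, was at 46.2, 68.3 and 16.3 CPM against 7.82, 14.8 and 5.17 CPM, with ratios of 2.42, 2.13 and 1.49. The receptor FGFR1 was at 51.4, 82.5 and 24.2 CPM, with ratios of 1.38, 1.27 and 1.21. Both were thus higher in the class in every stage and least abundant in telogen. Most of the PTHLH UMIs of the class (94.1%, 91.3% and 88.0%) lay in a minority of cells chosen with PTHLH and described further on. The rest of the class was at 3.14, 7.56 and 2.23 CPM of PTHLH. The choice of the minority fixed that low level, so it is not compared with the other cells.

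Other genes in the first 20 of that ranking had smaller ratios that were alike in the 3 stages. ZBTB16, a zinc finger repressor, had ratios of 1.41, 0.98 and 0.97, and the catenin-like CTNNAL1 of 0.92, 0.88 and 0.87. ZFP36L2, which destabilises messenger RNA, had 0.86, 0.99 and 0.90, and CDH13, a cadherin held to the membrane by a lipid anchor, had 0.87, 1.02 and 0.83. COL12A1, CRIM1, CACHD1 and GOLIM4 reached 2-fold in some stages, and ZBTB38, PTPN14, DIAPH2, SMARCA2, DSG2 and FOXO3 in none, with ratios between 0.68 and 0.91. DSG2, the desmosomal cadherin of basal and hair cells, had 0.74, 0.74 and 0.81.

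Genes of the outer epidermal layers were among those lower in the class. Genes 2-fold lower numbered 218 in anagen (3.74% of those compared), 241 in catagen (3.89%) and 252 in telogen (4.54%), and 115 were lower in all 3 stages, 36 of them without a symbol. KRTDAP, a small secreted protein of suprabasal keratinocytes, was at 466, 164 and 682 CPM against 3590, 2158 and 4461 CPM. SBSN, a protein of the same layers, had log2 ratios of -2.65, -2.73 and -3.77. SPINK5, which holds back the proteases of the horny layer, had -3.11, -3.83 and -4.38. Other genes among the 10 lowest were EXPH5, BNIPL, ATP6V0D1, H2AJ, TECR and S100A16, with ratios between -1.46 and -0.70. Of 21 suprabasal differentiation genes listed, 12 could be compared in each stage and 9, 11 and 12 of them were 2-fold lower in the class. Their median ratio was -1.99, -2.67 and -3.06. The limit on KRT1 and KRT10 takes such cells out, so this is a description of the choice of cells.

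Few cell to cell junction genes passed 2-fold. DSG1, the desmosomal cadherin of upper layers, had ratios of -0.91, -1.28 and -1.22, past 2-fold in catagen and telogen, and PERP, a desmosomal membrane protein, had -0.72, -0.72 and -0.71. On the list of desmosome and cadherin genes, which does not hold DSG1, none of 17 compared with other cells passed 2-fold in anagen, CDH13 was higher and CLDN4 lower among 16 in catagen, and CLDN4 was lower among 16 in telogen, beside 1.68%, 2.58% and 1.49% of all genes higher and 3.74%, 3.89% and 4.54% lower, so that these counts are near the share over all genes. DSP, which ties desmosomes to keratin, was at 2183, 3050 and 1198 CPM with ratios of 0.08, -0.17 and -0.33.

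Inflammation-linked S100 genes were low, too. S100A7, S100A8, S100A9 and S100A12, small calcium-binding proteins of stressed or differentiated keratinocytes, were 2-fold lower in the class in every stage. For S100A7 the levels were 251, 11.9 and 359 CPM against 4338, 204 and 2936 CPM in the other cells. Of 8 S100 genes compared in each stage, 4, 5 and 6 were lower, and only S100A4 was higher, in catagen, beside 3.74%, 3.89% and 4.54% of all genes that were lower. Of the keratinocyte cytokines compared, IL1F10 was lower in all 3 stages, IL1A in anagen and CCL20 in telogen, and none was higher. Mitosis genes outside the limits were 2-fold lower in 8 of 9, 5 of 7 and 6 of 7 comparisons, and the limit on TOP2A, CENPF and UBE2C takes such cells out. Of 15, 13 and 14 DNA replication genes compared, only UHRF1 in telogen was 2-fold lower. That is near the share of all genes that were lower, so it says little about the list.

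Signalling genes were mixed. Among ligands and receptors of the ERBB and FGF families, FGFR1 was higher in all 3 stages, NRG1 in anagen and catagen, FGF7 in anagen and telogen and IGF1R in telogen. AREG, an ERBB ligand, was 2-fold lower in all 3 (256, 64.3 and 32.7 CPM against 665, 325 and 167 CPM), and EREG in anagen and catagen. Together 3 of 15, 2 of 15 and 3 of 13 such genes were higher, and 2, 2 and 1 were lower, beside 1.68%, 2.58% and 1.49% of all genes higher and 3.74%, 3.89% and 4.54% lower. The anagen FGF7 UMIs numbered 34 in 11 of 488 class cells, 97.1% of them in 10 cells, and the telogen FGF7 UMIs 35 in 11 of 490. Of the WNT, BMP and TGF-beta genes, LTBP1 was among those higher in catagen and CCN2 in telogen, and SERPINE2 was lower in each stage, with FZD10 in anagen. Their list medians were 0.19, 0.33 and 0.21. Among 15, 15 and 13 transcription factors of the basal layer and Notch genes compared, GRHL1 in catagen was the one gene past 2-fold, lower. These counts are near the shares over all genes and say little about the list. TP63, the master factor of basal keratinocytes, had ratios of 0.62, 0.45 and 0.51.

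Contractile and actin genes did not follow MYLK. Of 18, 18 and 19 compared with other cells, MYLK was higher in each stage, VCL in anagen, and ACTA2 and TPM2 in telogen. The ACTA2 value rested on 2 telogen cells that held all of its 38 UMIs. Among the keratins of basal and outer sheath cells KRT18 alone, in catagen, was 2-fold higher than in other cells, of 4, 5 and 4 compared. Of the inner root sheath genes 5 of 5, 2 of 5 and 4 of 4 were 2-fold lower, of the companion layer genes 2 of 4, 2 of 3 and 2 of 3, and of the sebaceous genes 2 of 5, 0 of 4 and 1 of 3, with ELOVL3 higher in catagen. Over all genes 3.74%, 3.89% and 4.54% were 2-fold lower and 1.68%, 2.58% and 1.49% higher. In the list of collagen-modifying enzymes, P3H2 was the one member past 2-fold in every stage, among 7, 8 and 8 compared.

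**Figure D2:**
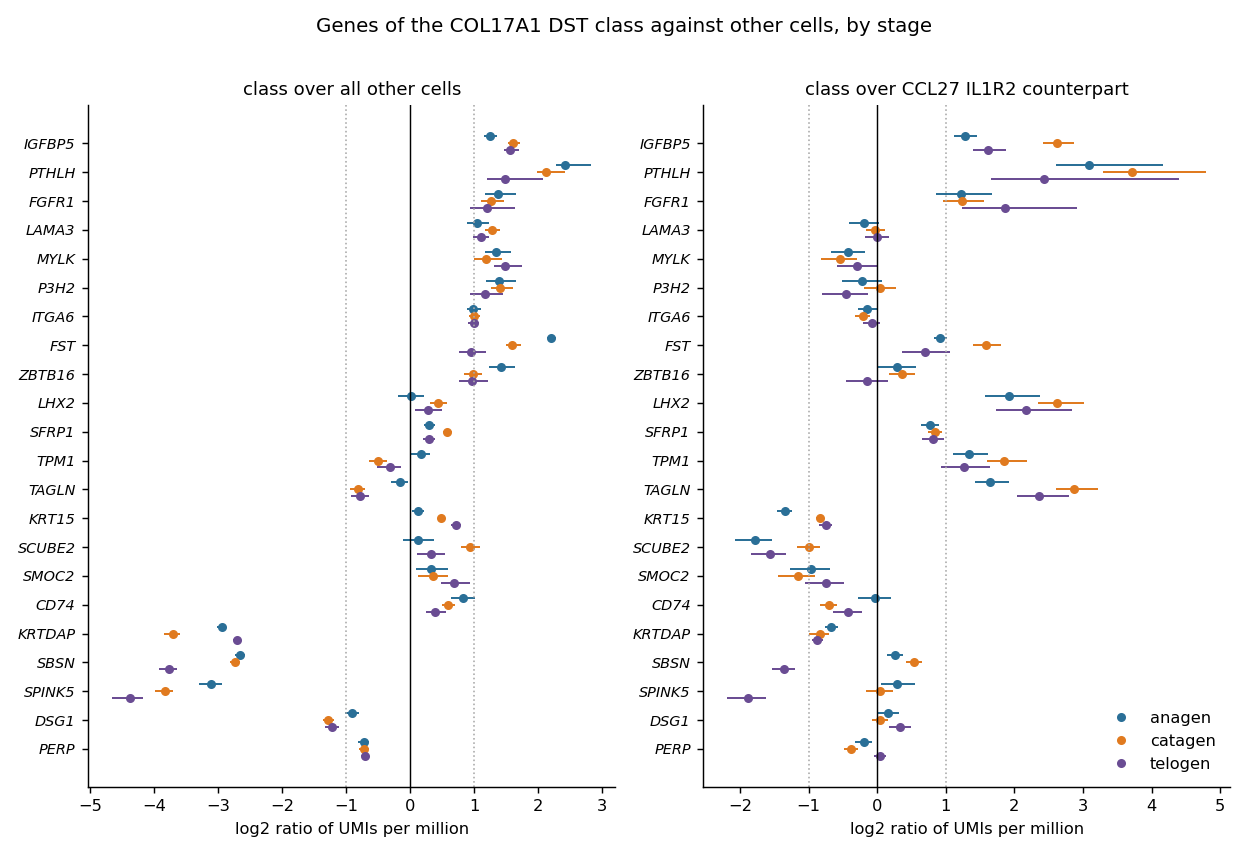
Log2 ratios of CPM for 22 genes, class over all other cells on the left and class over the CCL27 IL1R2 counterpart on the right, with 1 colour per stage; points are ratios within 1 library and bars exact 95% intervals for counting error. LAMA3, MYLK and P3H2 stand above 0 on the left and near or below 0 on the right, IGFBP5, PTHLH and FGFR1 stand above 0 on both sides, and KRT15, SCUBE2 and SMOC2 fall below 0 on the right.

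The CCL27 IL1R2 counterpart differs from the class by 1 limit, and its cells were also deeper, as given above. Thinning to 3000 UMIs before the limits moved the numbers of genes past 2-fold between them from 188, 288 and 143 to 825, 563 and 1331. It left 243, 413 and 212 class cells of 3000 UMIs each, with the minimum of 10 CPM unchanged. Thinned calls thus rest on fewer UMIs and carry more counting error, so these numbers do not show a part of depth, which was not tested. LAMA3 had ratios over the counterpart of -0.19, -0.03 and -0.01, ITGA6 of -0.14, -0.21 and -0.08, and MYLK of -0.42, -0.55 and -0.29. In anagen 106 of 5759 genes were 2-fold higher in the class (1.84%) and 82 lower (1.42%), in catagen 222 of 6038 higher (3.68%) and 66 lower (1.09%), and in telogen 66 of 5483 higher (1.2%) and 77 lower (1.4%). With each cell's CPM averaged, the telogen split became 137 higher and 76 lower, and after thinning 698 higher and 633 lower. The median ratio in catagen was 0.11, so that catagen ratios are shifted upward by about that much.

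Genes higher in the class than in the counterpart in all 3 stages were 17 of 4964, 2 of them without a symbol and the others ABI3BP, ALCAM, CMYA5, FAM13A, FGFR1, IGFBP5, KRT7, KRT71, LHX2, NPDC1, PHYHIP, PTHLH, SEMA3E, TAGLN and TPM1. The catagen ratio of KRT71 rested on a few cells, described further on, and was -1.08 without them, and the telogen ratio was -0.39 when the class was limited to cells with no CCL27 or IL1R2 UMI. IGFBP5 had ratios of 1.28 (1.11 to 1.46), 2.62 (2.42 to 2.87) and 1.62 (1.40 to 1.87). LHX2, a homeodomain factor of hair germ and bulge, was at 74.6, 143 and 60.1 CPM in the class and 19.1, 22.4 and 12.5 CPM in the counterpart, with ratios of 1.91, 2.62 and 2.18. Against all other cells, which had 73.7, 104 and 49.1 CPM, its ratios were 0.02, 0.44 and 0.29. PTHLH had ratios of 3.09, 3.71 and 2.43 over the counterpart.

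The actin-binding TAGLN had ratios of 1.65, 2.86 and 2.36 and tropomyosin TPM1 of 1.34, 1.85 and 1.26, while the ratios of TAGLN over all other cells were -0.16, -0.82 and -0.78. The 10 richest class cells held 64.5%, 44.5% and 68.7% of the TAGLN UMIs. KRT17, a keratin of the outer root sheath and of activated keratinocytes, had 0.63, 1.61 and 1.16. SFRP1, a secreted WNT inhibitor, had 0.77, 0.84 and 0.81, and the repressor TRPS1 had 1.1, 2.24 and 0.82. GJA1, a gap junction protein, had 0.74, 1.19 and 0.69, and the small heat shock protein CRYAB had 0.78, 1.39 and 0.69. The collagen IV chains COL4A1 and COL4A2 were 2-fold higher in anagen and catagen, whereas COL4A6 was 2-fold lower in both.

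Bulge and hair germ genes were 2-fold higher than in the counterpart in 4 of 14 comparisons in anagen (ENPP1, LGR5, LHX2 and PTHLH), 9 of 15 in catagen (CXCL14, DKK3, ENPP1, ID2, LGR5, LHX2, NFATC1, PTHLH and WIF1) and 3 of 14 in telogen (LHX2, PTHLH and WIF1). One was lower in anagen, POSTN, and 1 in telogen, TNC. The list medians were 0.49, 1.21 and 0.22, beside 0.03, 0.11 and 0.02 over all genes, and 1.84%, 3.68% and 1.2% of all genes were higher. Against all other cells 3 of 14, 6 of 16 and 2 of 14 were higher, beside 1.68%, 2.58% and 1.49% of all genes. LHX2 and PTHLH were among the genes that led to the division of the class described further on.

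In the opposite direction, KRT15, a keratin of quiescent basal and bulge cells, was at 320, 927 and 453 CPM in the class and 816, 1654 and 763 CPM in the counterpart, with ratios of -1.35, -0.84 and -0.75. SCUBE2, a secreted protein that releases hedgehog ligands, had ratios of -1.77, -1.0 and -1.56, and the matrix protein SMOC2 had -0.97, -1.16 and -0.75. POSTN, another matrix protein, was at 934, 1769 and 1575 CPM against 2615, 2021 and 2928 CPM. The antioxidant enzymes SOD1 (-1.04, -0.62 and -1.02) and PRDX6 (-0.74, -0.90 and -0.61) and the amino acid transporter SLC1A5 (-1.83, -1.07 and -0.53) had ratios below 0 in each stage as well. CA12, a carbonic anhydrase, and the transcription factors BHLHE40 and EHF completed the 10 lowest with KRTDAP, at ratios between -0.97 and -0.56. The 7 genes 2-fold lower in all stages were CFAP57, IGFL1, ITIH5, RARRES1, S100A9 and 2 without a symbol. So the counterpart held more KRT15, SCUBE2 and POSTN, and the class more IGFBP5, PTHLH, LHX2 and KRT17.

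Between stages, ratios within the class were taken relative to the median of the genes compared, which was 0.07 for catagen over anagen, -0.25 for telogen over catagen and -0.15 for telogen over anagen. The 3 comparisons share libraries, each library standing in 2 of them, and stage, library, animal and the Cell Ranger version named in the file headers cannot be told apart. Relative to the median, 346 of 6198 genes rose 2-fold from anagen to catagen (5.58%) and 369 fell (5.95%), 624 of 6133 rose from catagen to telogen (10.2%) and 595 fell (9.7%), and 302 of 5864 were higher in telogen than in anagen (5.15%) and 439 lower (7.49%). Without taking off the median the splits were 301 higher and 990 lower for telogen over catagen, and 184 higher and 619 lower for telogen over anagen. For catagen over anagen that split was 423 higher and 312 lower, the other way from the split with median-of-ratios scaling over the stages, 282 higher and 473 lower. The same scaling split telogen over catagen into 720 higher and 517 lower.

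The anagen class was marked by FST, ITPKC, CLDN4, AREG and CCL20. FST went from 682 CPM in anagen (652 to 713) to 215 in catagen (200 to 231) and 63.4 in telogen (54.8 to 72.9), a step of -1.73 (-1.86 to -1.61) and a further -1.49 (-1.75 to -1.28) on the log2 scale. After thinning to 3000 UMIs the FST steps were -2.05 and -0.90, the second short of 2-fold. ITPKC, a kinase of inositol trisphosphate, was at 705, 101 and 46.1 CPM, and CLDN4, a tight junction claudin, at 1070, 221 and 56.5 CPM. AREG was at 256, 64.3 and 32.7 CPM, with 136 of its 748 anagen UMIs in 1 cell, and at 146 CPM in anagen without its 10 richest cells. All 5 genes were also highest in anagen in the other cells, AREG at higher levels than in the class (665, 325 and 167 CPM). CCL20, a chemokine that draws dendritic and T cells, was at 460, 128 and 54.9 CPM, and its 10 richest cells held 57.3%, 93.4% and 87.5% of its UMIs in the class.

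The genes lowest in anagen included S100A4, TXNIP and LAMA3. S100A4 was at 124, 382 and 629 CPM. TXNIP, a thioredoxin inhibitor that responds to glucose, was at 441, 1161 and 1887 CPM, with steps of 1.32 and 0.95. LAMA3 was at 217 CPM in catagen and 188 in telogen against 97.6 in anagen, with ratios of 1.07 and 1.09 relative to the median, the telogen one past 2-fold only with the median taken off, but after thinning to 3000 UMIs the LAMA3 ratios were 0.64 and 0.83, short of 2-fold. CLK1, a kinase of splicing factors, and ITM2B, a membrane protein, were at 39.7, 120 and 93.7 CPM and at 175, 381 and 345 CPM. The matrix gene POSTN was at 934, 1769 and 1575 CPM, short of 2-fold.

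In catagen, beside the inner sheath genes treated below, FAM13A and MTUS1 stood highest. FAM13A, a gene of the RhoGAP family, was at 48.3, 192 and 47.0 CPM, and MTUS1, which codes for a microtubule-associated protein, at 35.3, 120 and 29.1 CPM. The FAM13A UMIs of the catagen class lay in 332 of its 925 cells, and the 10 richest held 9.7% of them. The part of background in these UMIs was not tested. Genes lowest in catagen were S100A7 (251, 11.9 and 359 CPM), IGFBP6 (44.8, 7.94 and 137 CPM), SELENBP1 (144, 16.4 and 66.3 CPM) and the metallothionein MT2A (1374, 399 and 3613 CPM), with KRTDAP and MGST3. KRT15 rose by a log2 ratio of 1.46 from anagen to catagen, while KRT17 fell from 7254 to 3177 CPM and was at 3274 CPM in telogen. WIF1, a secreted WNT inhibitor of the bulge, was at 7.87, 51.6 and 14.4 CPM.

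In telogen, C3, PTGES, IGFBP6, LGALS1, CACYBP and MT2A stood highest. The complement component C3 was at 16.8, 5.67 and 126 CPM and was found in 24 of 488, 13 of 925 and 95 of 490 class cells. These cells were counted without thinning, at depths that differ by stage, and the part of depth and background was not tested. The step of C3 from catagen was 4.51 (4.08 to 5.46). The 10 richest telogen cells held 42.9% of the C3 UMIs, and without them C3 was at 73.2 CPM. PTGES, which makes prostaglandin E2, was at 51.7, 38.8 and 184 CPM, and the galectin LGALS1 at 85.9, 40.3 and 249 CPM. Lowest in telogen were NR4A2 (275, 249 and 47.0 CPM), DENND2C (212, 165 and 42.8 CPM), IGFBP3 (190, 89.6 and 25.2 CPM) and JMJD1C (520, 465 and 136 CPM), beside CLDN4 and KRT27.

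Of 17 early response and stress genes, which are switched on within minutes by growth signals or stress, 11 fell 2-fold from catagen to telogen (ATF3, BTG2, EGR1, FOS, FOSB, IER2, JUN, JUNB, JUND, NR4A1 and ZFP36) and 1 rose, HSPH1 (9.7% and 10.2% over all genes), with a list median of -1.33 relative to that of all genes. Against anagen, 8 were lower in telogen and HSPH1 was higher (7.49% and 5.15% over all genes). JUN was at 3488, 3421 and 1143 CPM and EGR1 at 170, 211 and 55.2 CPM. In the other cells of the libraries JUN was lower in telogen as well. There it differed by -1.56 between telogen and catagen and by -1.18 between telogen and anagen, without the median taken off.

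Other lists moved in parts. From catagen to telogen 10 of 24 WNT, BMP and TGF-beta genes fell (BMP2, BMP4, BMPR1A, CCN1, CCN2, LTBP1, TGFBR1, WNT10A, WNT16 and WNT7B) and TGFBI rose, 6 of 15 ERBB and FGF genes fell and 3 rose, and 5 of 18 basement membrane genes fell (among them COL4A2, ITGA2, LAMC1 and PLEC), beside 9.7% of all genes that fell and 10.2% that rose. The medians of the 3 lists were -0.71, -0.74 and -0.51. From anagen to catagen 6 of 15 DNA replication genes fell (CDC45, CDT1, MCM2, MCM3, MCM5 and TK1), none rose and the median was -0.70, beside 5.95% of all genes that fell. In the same step 4 of 6 interferon response genes fell (IFI6, IRF9, ISG15 and MX1), ISG15 from 52.7 to 9.35 CPM, beside the same 5.95%. The 10 richest anagen class cells held 50.6% of the ISG15, 72.5% of the IFI6 and 43.5% of the MX1 UMIs, and without them ISG15 was at 26.7, IFI6 at 3.87 and MX1 at 16.7 CPM in anagen. In the Notch and basal factor list HEY1 was higher in telogen than in both other stages, and KLF4 and NOTCH1 were lower. Basal keratins KRT5 and KRT14 stayed within 2-fold over the 3 stages.

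**Figure D3:**
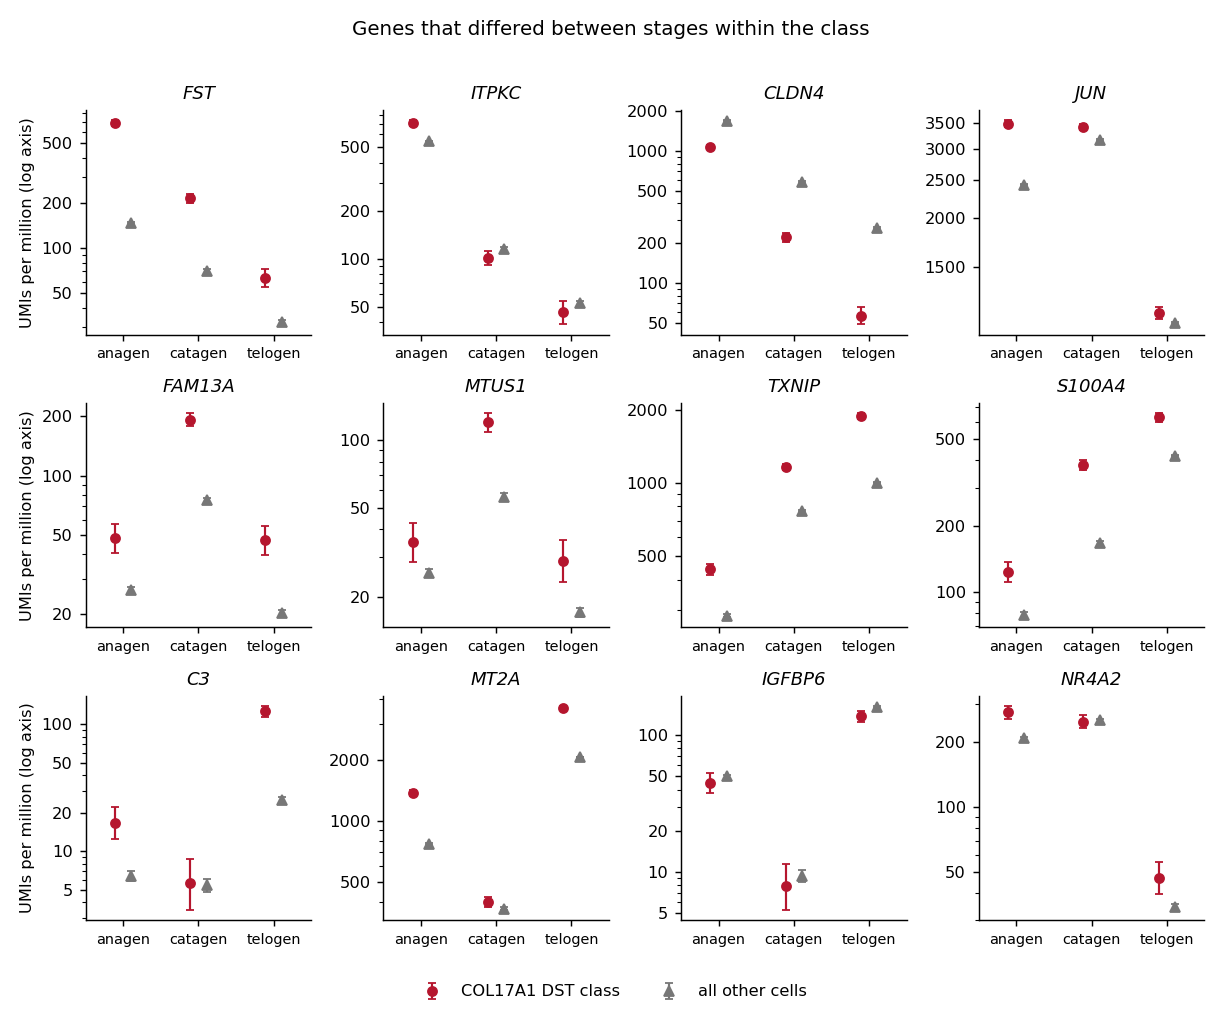
Levels in CPM (log axis) of 12 genes in the class and in all other cells at anagen, catagen and telogen, with exact Poisson 95% intervals; each point is a sum over cells of 1 library. FST, ITPKC and CLDN4 step down from anagen to telogen, FAM13A and MTUS1 peak in catagen, and C3 and IGFBP6 are highest in telogen, in the class and in the other cells of the same library.

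Stage ratios in the class were set against stage ratios in all other cells of the same libraries. Few genes departed 2-fold: 72 higher (1.16%) and 69 lower (1.11%) for catagen over anagen, 44 higher (0.717%) and 87 lower (1.42%) for telogen over catagen, and 33 higher (0.563%) and 89 lower (1.52%) for telogen over anagen. The last split became 57 higher and 94 lower with averaged cells. It became 323 higher and 391 lower after thinning to 3000 UMIs, which left fewer UMIs to count. From anagen to telogen FST fell further in the class than in the other cells, with a difference of -1.25 (-1.47 to -1.03) between the log2 ratios. KRT17 moved in opposite ways, lower in the telogen than in the anagen class and higher in the other telogen cells (4907 CPM in anagen and 6468 in telogen), a difference of -1.55 (-1.59 to -1.52). S100A2 did likewise, with a difference of -1.54, and CLDN4 fell further in the class, with a difference of -1.53. C3 rose more in the class from catagen to telogen, with a difference of 2.21 (1.54 to 2.88). In catagen C3 had 5 UMIs in the class cells with PTHLH, SEMA3E and LHX2, described further on, and 15 in the rest. In telogen the former held 137 C3 UMIs, 35.4% of those of the class. With these cells taken out of the class only, the C3 difference for telogen over anagen was 0.45, short of 2-fold.

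IGFBP3, which binds insulin-like growth factors, fell less from anagen to catagen in the class than outside it (difference 1.11, 0.90 to 1.32), and from catagen to telogen it fell in the class and not outside (difference -2.18, -2.54 to -1.81). SELENBP1 fell more in the class from anagen to catagen, with a difference of -1.42. In anagen 128 of the 421 SELENBP1 UMIs of the class lay in 1 cell and 50.1% in 10, without which SELENBP1 was at 74.8 CPM in place of 144. IGFBP3 was at 115 CPM in anagen, 54.3 in catagen and 8.04 in telogen without its 10 richest cells. KRT75, a keratin of the companion layer, was at 155, 109 and 59.5 CPM in the class and 188, 334 and 172 CPM outside it, a difference of -1.34 for catagen over anagen. In anagen 85.7% of the KRT75 UMIs of the class lay in 10 cells, and in catagen 89.0%. No gene of the basement membrane, basal factor and Notch, or early response lists departed 2-fold from the other cells in a stage comparison, where between 0.563% and 1.52% of all genes did in each direction, so that counts of 0 say little about these lists.

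Some large differences rested on a handful of cells. Inner root sheath genes seemed high in the catagen class: KRT71 was at 665 CPM, against 180.4 in anagen and 60.4 in telogen, and KRT27 at 779.8 CPM, against 103 and 23.8. Limits chosen after these values had been seen found 4 catagen and 2 anagen class cells with 2% or more of their UMIs from KRT25, KRT27, KRT28 and KRT71. The 4 catagen cells held 2080 of 2347 KRT71 UMIs (88.6%) and 2555 of 2751 KRT27 UMIs (92.9%). Without such cells KRT71 was at 85.4, 77.1 and 60.4 CPM and KRT27 at 50.8, 56.6 and 23.8 CPM in the 3 stages, so that KRT71 was no longer highest in catagen and KRT27 was near its anagen level. Of the catagen UMIs of PMP2 and KRT25, 87.2% and 84.9% lay in these 4 cells. Without such cells PMP2 was at 56.0, 54.9 and 78.4 CPM, and KRT25 at 51.2, 99.0 and 49.98 CPM, still highest in catagen. The median depth of the 4 cells was 15754 UMIs, against 3251 in the whole catagen class, and no doublet caller was run.

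Hair cortex and pigment genes differed in how far they were concentrated. Of 1814 KRT85 UMIs in the anagen class (KRT85 being a keratin of the hair cortex), 480 lay in 1 cell (26.5%), and the 10 richest cells held 65.2%. A KRT85 UMI was found in 268 of the 488 cells, and KRT85 was at 226 CPM without the 10 richest. The part of background in its UMIs was not tested. In catagen 10 cells with 3 or more UMIs of melanocyte genes held 155 of 166 PMEL UMIs and all 139 TYRP1 UMIs, PMEL and TYRP1 being genes of the pigment granule. Without all such cells, 3 in anagen, 12 in catagen and 0 in telogen, none of the 15 main counts and shares moved by 1.5 times or past its interval. Single genes did move, among them KRT71, KRT25, KRT27, PMP2, ELOVL3, PMEL and TYRP1. By contrast the 10 richest cells held 9.5%, 7.3% and 8.7% of KRT14 UMIs and 24.6%, 16.8% and 25.6% of IGFBP5 UMIs.

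**Figure D4:**
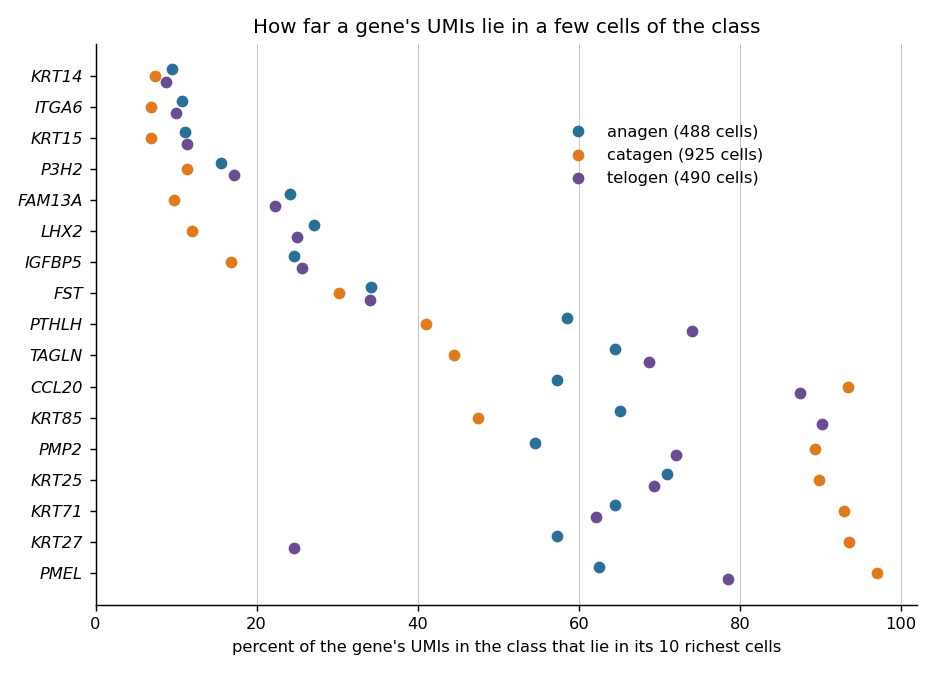
For 17 genes, the percent of the gene's UMIs in the class that lay in its 10 richest cells, 1 point per stage, on a linear axis that starts at 0. KRT14, ITGA6 and KRT15 lie near the low end and are spread over many cells, while KRT27, KRT71, PMEL and CCL20 in catagen have over 90% in 10 cells.

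Genes differed in how evenly they were spread over the class. After thinning to 3000 UMIs, 450 anagen, 528 catagen and 431 telogen class cells remained, and 38, 397 and 59 shallower ones were left out. Over 1023 genes the median ratio of variance to mean was 1.13, 1.14 and 1.1, where 1 is pure counting noise, and 109, 92 and 62 genes were at 2 or more. The ratio was 24.4, 32.7 and 25.7 for KRT17 and 20.9, 21.8 and 20.8 for KRT14. CCL20 was above both in anagen, at 24.8, and PMP2 in catagen, at 51.5. In catagen the richest 10% of cells held 56.0% of KRT17 UMIs but 24.4% of KRT14 UMIs. IGFBP5 had 5.25, 5.13 and 7.06, so it was far from evenly spread.

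In catagen IGFBP5 and CD74 were found together in 27 cells, where 53.7 would be met if they were independent. In anagen the numbers were 19 and 24.2, and in telogen 19 and 27.1. In catagen CD74 was detected in 16.7% of the 162 thinned cells with IGFBP5 and in 40.4% of the cells without it. In anagen the shares were 13.3% and 18.6%, and in telogen 17.3% and 27.1%. CD74 was found in 16.9%, 33.1% and 24.6% of all thinned class cells, and in 1.09% of anagen and 2.22% of telogen inner sheath keratin cells and in 0 of 75 in catagen, which allows a share of cells with a UMI of up to 4%, at the depths given above. These are descriptions of single libraries, and cells of 1 library are not replicates.

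A part of the class carried the follicle genes PTHLH, SEMA3E and LHX2. With a limit of 3 or more UMIs of the 3 genes together, chosen after the values had been seen, these were 66 anagen class cells (13.5%, 10.6 to 16.9), 167 catagen cells (18.1%, 15.6 to 20.7) and 56 telogen cells (11.4%, 8.75 to 14.6). The same limit was met by 3.49%, 3.19% and 1.33% of the counterpart and by 9.48%, 8.94% and 6.89% of all other cells. Among inner sheath keratin cells, 0 of 125, 1 of 94 and 0 of 52 met it, where 0 allows shares of cells at this UMI limit of up to 2.4% in anagen and 5.77% in telogen. At an equal 3000 UMIs per cell the class had 8.67%, 14.2% and 5.10% and the counterpart 1.2%, 1.05% and 0.549%. The cells are named by these genes only and given no cell type.

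These cells held 12.9%, 21.2% and 12% of the UMIs of the class but 46.5%, 49.9% and 41.0% of its IGFBP5 UMIs. IGFBP5 was at 988, 695 and 760.0 CPM in them and at 167, 188 and 149 CPM in the rest of the class, with log2 ratios of 2.55, 1.88 and 2.34. Without them the ratio of IGFBP5 over all other cells was 0.55, 0.96 and 0.995, and over the counterpart 0.58, 1.97 and 1.05. IGFBP5 was then short of 2-fold over all other cells in all 3 stages, and over the counterpart in anagen. These cells were taken out of the class only, while cells meeting the same limit stayed in the other cells and the counterpart. That choice alone can lower these ratios, so no conclusion is drawn from them. SFRP1 (2.40, 1.28 and 2.05) and WIF1 (3.78, 1.61 and 3.48), which both restrain WNT signals, and the phosphodiesterase ENPP1 (4.13, 2.28 and 1.73) were higher in the class cells with follicle genes. KRT17 was higher as well, with ratios of 0.82, 1.48 and 1.06.

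CD74, MYLK, KRT15, KRT14 and P3H2 were lower in the cells with follicle genes than in the rest of the class, except that the anagen interval for P3H2 held 0. CD74 was at 13.3, 32.1 and 54.5 CPM in the follicle-gene cells and 99.8, 285 and 124 CPM in the rest, with ratios of -2.82, -3.11 and -1.18. The follicle-gene cells held only 5 CD74 UMIs in anagen, and 7 UMIs of MYLK and 5 of P3H2 in telogen. MYLK had ratios of -0.92, -2.01 and -1.80, KRT15 of -0.62, -1.22 and -1.17, KRT14 of -0.63, -0.98 and -1.42 and P3H2 of -0.43 (-1.25 to 0.29), -0.92 and -1.74. TP63 (0.52, 0.14 and 0.74) was not, and KRT5 (0.49, -0.07 and -0.53) was so in telogen only. Of the anchoring genes, ITGA6 had -0.52, -0.47 and -1.12, while COL17A1 had -0.52, -0.29 and -0.28, LAMA3 had 0.23, 0.38 and -0.28, and DST had 0.37, -0.04 and 0.23. FST went with neither side, at -0.59, 0.57 and 1.13. The limits of the class thus took in a minority with more IGFBP5, SFRP1 and KRT17 and a majority with more CD74, MYLK and KRT15. Of the 66, 167 and 56 cells with follicle genes, 6, 10 and 10 also had 5 or more UMIs of TAGLN and ACTA2, and 0, 3 and 0 were among the cells with inner sheath, cortex or melanocyte genes.

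**Figure D5:**
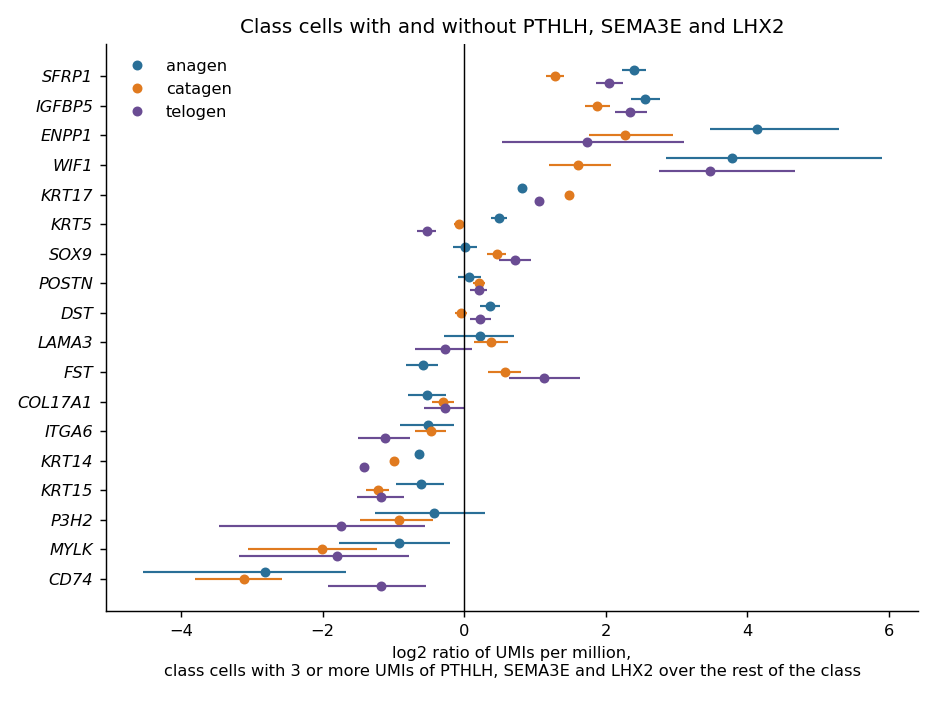
Log2 ratios of CPM between class cells with 3 or more UMIs of PTHLH, SEMA3E and LHX2 and the rest of the class, 1 colour per stage, with exact 95% intervals for counting error. SFRP1, IGFBP5, ENPP1, WIF1 and KRT17 lie to the right of 0 in all stages. DST, a gene that chose the cells, lies a little to the right in anagen and telogen and near 0 in catagen. CD74, MYLK, P3H2, KRT15 and KRT14 lie to the left, with the anagen interval of P3H2 crossing 0.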

How the data were processed

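The authors deposited 1 matrix of UMI counts per stage, whole numbers per gene and cell barcode as Cell Ranger wrote them, without normalization. Per the study's methods, reads were aligned with STAR inside Cell Ranger. The file headers name Cell Ranger 4.0.0 (anagen), 3.1.0 (catagen) and 6.0.2 (telogen), while the submitters' processing notes list 2.1.1 for all. The genome build is not given in the sources used here. Versions and depth differ by stage, which can move counts between libraries.

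Cells with 200 or more detected genes were kept, leaving out 13, 62 and 71 barcodes. Doublets were left in. UMI counts were summed per library and class, scaled to CPM, and compared as log2 ratios with 1 CPM added, among genes with 10 CPM or more on either side, the rule genes left out. Past 2-fold is the call. With 1 library per stage no test was run. Intervals are exact Poisson, Clopper-Pearson or conditional binomial at 95%, and for stage ratios against other cells are normal intervals from the summed Poisson variances. The share that a count of 0 allows is 3 divided by the number of cells, not an exact limit. Exact upper limits are higher, as 2.91% for 0 of 125 cells and 6.85% for 0 of 52. Shares of cells with a UMI of 1 gene, unless given as counts of all class cells, and variability used cells thinned to 3000 UMIs. Steps were checked on simulated data. Python 3.11.15, numpy 2.4.6, scipy 1.17.1 and pandas 2.3.3 were used.

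The members, the 25 gene lists (463 genes, 365 with a row) and all limits were chosen with earlier results of these data known. Named genes were the rule genes and markers, the 20 highest and 10 lowest over other cells (50 CPM or more in the class in each library, ranked by the weakest stage), the 10 highest and 10 lowest over the counterpart, the 6 highest and 6 lowest per stage (100 CPM or more in any stage), the 4 highest and 4 lowest stage ratios against other cells, list members with up to 4 examples, and genes past 2-fold in all stages. Some further genes, among them PTHLH, SEMA3E, FGFR1, WIF1, ENPP1, PMEL, TYRP1 and ELOVL3, were named after their values had been seen. Genes without a symbol were counted and not named. Alternatives were other limits, thinning, cell filters, expression minimums and scalings, and 3 alternatives on cells, which were added after seeing the data. A few genes that the rule names are not reported here.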

Additional observations from a re-analysis of the deposited data

Results flagged for a closer look

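ELOVL3, an enzyme that lengthens fatty acids in sebaceous and inner sheath cells, was higher in the class than in all other cells in catagen, with a log2 ratio of 1.14, and lower in anagen (-3.46) and telogen (-4.56). The opposite directions between stages called attention to it, and the difference was not tested. Its levels were 9.24, 50.2 and 1.63 CPM in the class and 112, 22.2 and 61.1 CPM in the other cells. Of its 177 UMIs in the catagen class, 167 lay in the 4 cells with inner sheath keratins, and without them it was at 2.89 CPM. Another 4 features without a symbol met the same criterion and are not named.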

How the results depend on the processing

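Of 186 recomputed main counts and shares 61 moved, by over 1.5 times for a count or past the interval of a share. Counts are genes past 2-fold in both directions. They were 316, 401 and 335 over other cells and 188, 288 and 143 over the counterpart (anagen, catagen, telogen), and 715, 1219 and 741 between stages and 141, 131 and 122 against other cells (catagen over anagen, telogen over catagen, telogen over anagen). A minimum of 50 CPM gave 88, 127 and 108, then 46, 77 and 32, then 216, 512 and 283, then 32, 25 and 25. No minimum gave 752, 905 and 790, then 863, 998 and 779, then 2018, 2742 and 1797, then 893, 754 and 754, among 26910 genes in each comparison. Thinning to 3000 UMIs before the limits, which left out shallower cells, gave 658 (anagen) and 710 (telogen) over other cells, 825, 563 and 1331 over the counterpart, 1100 and 1343 for catagen and telogen over anagen, and 469, 603 and 714 against other cells. These thinned counts rest on fewer UMIs at the same minimum of 10 CPM, so counting error is larger in them.

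Taking cells from 3 COL17A1 and DST UMIs gave shares of 7.59%, 12.6% and 5.85% and 80 genes for telogen over catagen against other cells. Taking them from 8 gave 2.06%, 4.10% and 1.60%, with 488 genes over other cells in anagen, 307 and 236 over the counterpart in anagen and telogen, and 265, 256 and 271 against other cells. No CCL27 or IL1R2 UMI gave 2.56%, 5.46% and 2.49%, and 190 genes for telogen over anagen against other cells. Thinning gave 2.46%, 6.18% and 2.12%, and 1000 detected genes 4.61% and 4.31% in anagen and telogen. Of the alternatives chosen after seeing the data, leaving out cells with PTHLH, SEMA3E and LHX2 gave 3.54%, 6.37% and 3.004%, and requiring the smallest anagen UMI total gave 8.71% and 4.28% in catagen and telogen. The catagen share was the highest in each. The cause of these moves was not tested beyond the cell and gene numbers that each setting fixes.

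Of 2208 named values 581 moved and 27 reversed, all of these in 5 genes. KRT71 was at -0.39 over the telogen counterpart with no CCL27 or IL1R2 UMI. Under thinning, KRT71 was at -0.45 over the catagen counterpart. For catagen over anagen in the class, thinning gave KRT27 -0.26, KRT71 -0.70 and PMP2 -0.34, and against other cells KRT25 -0.45, KRT27 -0.20, KRT71 -0.75 and PMP2 -0.21. For telogen over catagen in the class it gave KRT25 0.41, KRT71 0.16, PMP2 0.32 and KRT85 -0.043, and against other cells KRT25 1.84, KRT27 0.23 and KRT71 1.28. KRT25 was at 0.69 for telogen over anagen. Without class cells with inner sheath, cortex or melanocyte genes, catagen over anagen was -0.20 for KRT71 and -0.088 for PMP2, and against other cells -0.21 and -0.13. Telogen over catagen was then 0.74 for PMP2 in the class and 0.37, 0.21 and 0.55 for KRT25, KRT27 and KRT71 against other cells, KRT25 was at 0.11 for telogen over anagen, and KRT71 at -1.08 over the catagen counterpart.

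Leaving out the deepest 5% of cells, averaging cells, keeping or removing the median, and median-of-ratios scaling moved none of the main counts by 1.5 times. No paired analysis was possible because each stage had 1 library. Depth limits genes under 10 CPM, and differences between stages have no replicate check.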
